A study of Mus musculus with 6 samples.

Results

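The levels of 10 genes that mark macrophages of the liver were followed through all libraries of a mouse liver regeneration series. The genes were taken as the rows of the deposited count table whose Ensembl identifier carries 1 of the 10 chosen symbols, and 10 of 10 had a row among 12027. Of these, 5 mark Kupffer cells, the resident macrophages of the liver (Clec4f, Vsig4, Marco, Cd5l and Cd163), 3 mark macrophages in general (Csf1r, Adgre1 and Cd68), and 2 are used as markers of recruited or lipid-associated macrophages (Lgals3 and Lpl). The 10 genes were chosen with earlier results of these data known, so counts of how many changed describe them and are no independent support. The series sequenced messenger RNA of whole liver, not of sorted macrophages, after partial hepatectomy (PHX), the removal of part of the liver. The mice were male C57BL/6 animals of 8 weeks, and each library held the pooled RNA of 3 mice, so the spread between mice was not measured.

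The 6 groups had 1 library each. The OGA-KO groups (genotype OGA-/-) and the OGA controls (OGAfl/fl) were taken 14 and 28 days after PHX, and the OGT-KO group (OGT-/y) and the OGT control (OGTfl/y) 28 days after PHX. OGT adds single O-GlcNAc sugars to serines and threonines of proteins inside the cell, and OGA takes them off again. Per the labels both knockouts were specific to hepatocytes, so the macrophages of the knockout livers were not the targeted cells, and both controls carried the floxed allele of their own line. The Cre and the promoter behind the knockouts are not given in the sources used here. An OGT pair at 14 days is not analysed here.

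Kupffer cells sit in the sinusoids, clear particles and old red cells from the portal blood, and are seeded before birth and maintained locally by signals from hepatocytes, stellate cells and endothelium. When the resident pool is reduced or the liver is injured, circulating monocytes enter, lose monocyte genes and can take on the Kupffer programme step by step, with Clec4f and Timd4 among its defining genes. Macrophages that gather around dying or fat-laden hepatocytes, bile ducts and scars typically carry Lgals3, Lpl, Spp1, Cd9 and Trem2. In bulk tissue a higher level can come from more cells of a type or more RNA per cell, and the data cannot tell these apart.

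The libraries held 20433100 to 29327722 counts, and the lowest member count in any library was 49. Levels are CPM, read counts scaled to a common library size, with TMM composition factors, which were 0.90 to 0.925 in the OGA libraries, 1.06 in the OGT control and 1.37 in OGT-KO. By library totals alone the median of all genes lay 0.37 higher on the log2 scale in OGT-KO than in its control, and by TMM it lay at 0.00. Oga had 282 and 317 counts in the OGA-KO libraries against 1525 and 1760 in their controls. Ogt had 1205 counts in OGT-KO and 1339 in its control, so the whole-gene count of Ogt is no check of that label.

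Among the resident markers, Clec4f (ENSMUSG00000014542), a C-type lectin restricted to Kupffer cells in the mouse, stood at 46.7 CPM in OGA-KO and 44.7 CPM in its control at 14 days, at 45.7 and 38.6 CPM at 28 days, and at 93.4 CPM in OGT-KO and 67.0 CPM in the OGT control. Vsig4 (ENSMUSG00000044206), the complement receptor CRIg that takes up opsonised particles, stood at 6.73 and 8.53 CPM, at 8.98 and 8.37 CPM, and at 66.8 and 20.8 CPM in the same order. Marco (ENSMUSG00000026390), a scavenger receptor with a collagen-like stalk, stood at 13.4 and 9.55 CPM, at 10.2 and 8.18 CPM, and at 55.0 and 10.1 CPM. For each of these genes OGT-KO was the highest of the 6 libraries, and the 4 OGA libraries lay close together. Cd5l (ENSMUSG00000015854), a secreted inhibitor of macrophage apoptosis, stood at 43.1 and 43.7 CPM, at 52.8 and 38.9 CPM, and at 201.2 and 82.5 CPM. Cd163 (ENSMUSG00000008845), the receptor for haemoglobin bound to haptoglobin, stood at 9.18 and 10.8 CPM, at 16.0 and 11.9 CPM, and at 90.1 and 15.7 CPM. The OGT control lay above all 4 OGA libraries for Clec4f, Vsig4 and Cd5l. For Marco it lay within their range, and for Cd163 it lay below OGA-KO at 28 days.

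Promoters of 7 of the 10 members were found in the RefSeq table of build GRCm38.p6, each as the 250 bases before the annotated start. The window of Clec4f, the marker that defines Kupffer cells most narrowly, is shown beside 3 windows that hold GAGGAA, the core of sites bound by PU.1, the transcription factor that defines the myeloid lineage. Capitals mark GAGGAA on the printed strand, and both strands were searched. The windows are chr6:83656117-83656366 (minus strand) for Clec4f, chr1:120505025-120505274 (minus strand) for Marco, chrX:96293439-96293688 (minus strand) for Vsig4 and chr11:69666171-69666420 (minus strand) for Cd68, and each is written 5′ to 3′ towards the start.
Clec4f: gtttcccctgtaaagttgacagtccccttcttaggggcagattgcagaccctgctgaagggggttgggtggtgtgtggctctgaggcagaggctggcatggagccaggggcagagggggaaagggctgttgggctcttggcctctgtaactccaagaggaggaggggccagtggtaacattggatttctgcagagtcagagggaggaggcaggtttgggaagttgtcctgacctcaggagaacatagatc
Marco: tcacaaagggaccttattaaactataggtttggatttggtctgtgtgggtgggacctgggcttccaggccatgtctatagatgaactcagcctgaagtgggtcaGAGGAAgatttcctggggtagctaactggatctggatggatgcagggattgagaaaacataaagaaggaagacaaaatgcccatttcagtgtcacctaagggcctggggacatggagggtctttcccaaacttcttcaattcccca
Vsig4: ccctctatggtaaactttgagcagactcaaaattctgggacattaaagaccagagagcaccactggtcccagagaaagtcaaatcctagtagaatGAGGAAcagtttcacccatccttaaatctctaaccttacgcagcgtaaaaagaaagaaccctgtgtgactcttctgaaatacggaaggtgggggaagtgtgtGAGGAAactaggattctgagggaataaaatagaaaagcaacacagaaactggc
Cd68: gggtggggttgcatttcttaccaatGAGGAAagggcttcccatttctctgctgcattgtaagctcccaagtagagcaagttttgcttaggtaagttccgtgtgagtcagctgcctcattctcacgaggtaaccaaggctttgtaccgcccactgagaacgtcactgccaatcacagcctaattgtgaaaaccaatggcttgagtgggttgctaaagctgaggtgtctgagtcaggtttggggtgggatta
GAGGAA or its reverse complement was present in 4 of the 7 windows (Marco, Cd5l, Cd68 and Vsig4) against 23.3% of 32851 mouse promoter windows of the same length. It was absent from the windows of Clec4f, Cd163 and Lgals3, which had the smallest, the third largest and the second largest change of the 10 markers in OGT-KO. TGCTGA, the core that MAF factors bind, was present in 2 of 7 (Clec4f and Cd5l) against 16.1%, and TGANTCA, the site of AP-1, in 1 of 7 (Cd68) against 6.75%. These matches describe letters in a short window and no binding was measured.

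Of the general markers, Csf1r (ENSMUSG00000024621), the receptor through which CSF1 and IL-34 keep macrophages alive, stood at 30.0 and 30.4 CPM in OGA-KO and control at 14 days, at 38.9 and 32.1 CPM at 28 days, and at 213.7 and 48.2 CPM in OGT-KO and its control. Adgre1 (ENSMUSG00000004730), which encodes the F4/80 antigen, stood at 6.55 and 5.06 CPM, at 6.63 and 4.78 CPM, and at 40.6 and 12.7 CPM. Cd68 (ENSMUSG00000018774), a glycoprotein of late endosomes and lysosomes, stood at 4.48 and 4.82 CPM, at 5.01 and 5.20 CPM, and at 85.1 and 17.1 CPM. All 3 were higher in both OGT libraries than in any OGA library.

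Of the recruited or lipid-associated markers, Lgals3 (ENSMUSG00000050335), the galectin known as Mac-2, stood at 2.26 and 2.0 CPM in OGA-KO and control at 14 days, at 2.55 and 1.87 CPM at 28 days, and at 132.2 and 16.4 CPM in OGT-KO and its control. Lpl (ENSMUSG00000015568), the lipase that frees fatty acids from circulating lipoproteins, stood at 39.2 and 30.3 CPM, at 27.3 and 22.4 CPM, and at 316.0 and 23.4 CPM. Lgals3 separated both OGT libraries from the OGA libraries, with 379 counts in the OGT control against 49 to 63 in the OGA libraries. Lpl separated only OGT-KO from the rest, since the OGT control lay within the OGA range. Over all 10 members OGT-KO was the highest of the 6 libraries in 10 of 10, beside 36.9% of all genes, and both OGT libraries lay above all 4 OGA libraries in 7 of 10, beside 24.9% of all genes.

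**Figure D1:**
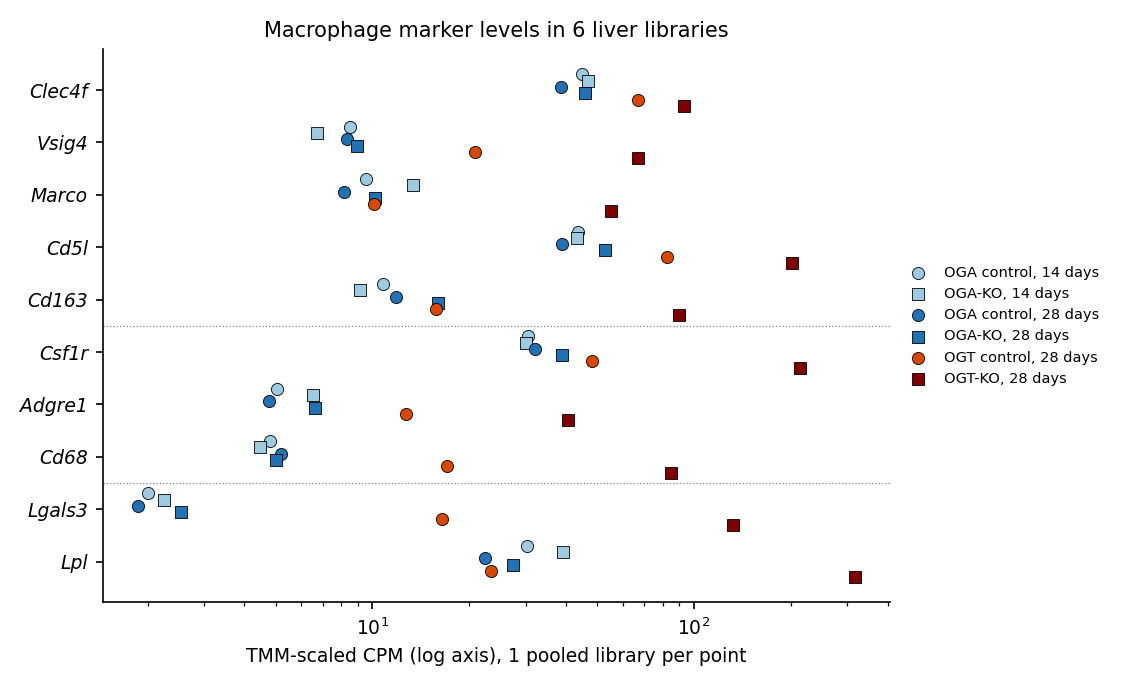
Level of the 10 macrophage markers in each of the 6 libraries, 1 point per library, in CPM with TMM factors on a logarithmic axis; each library is the pooled RNA of 3 mice, so there are no error bars. OGT-KO is the highest point for every marker, from 40.6 CPM for Adgre1 to 316.0 CPM for Lpl.

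Levels of different genes were compared per kilobase of annotated exon (CPM per kb, exon unions of GENCODE M21). On this scale Cd5l was the highest member in all 6 libraries, at 19.1 to 25.9 CPM per kb in the OGA libraries, 40.5 in the OGT control and 98.8 in OGT-KO. Clec4f was the second highest in the 4 OGA libraries and the OGT control and ranked 5 in OGT-KO, at 37.8 CPM per kb. Lgals3 was the lowest of the 10 in all 4 OGA libraries, at 1.01 to 1.37 CPM per kb, ranked 5 in the OGT control at 8.84 and ranked 2 in OGT-KO at 71.1. Cd68 ranked 3 in OGT-KO, at 67.7 CPM per kb.

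In the OGT pair at 28 days all 10 macrophage markers rose with the knockout, from 1.39-fold for Clec4f to 13.5-fold for Lpl. The test was the edgeR quasi-likelihood fit over all 6 libraries with terms for line, day, OGA-KO and OGT-KO. Each gene's error comes from what the OGA-KO effects at 14 and 28 days leave unexplained, drawn towards a trend shared by all genes. The single OGT libraries borrow that error. By this fit 10 of 10 members passed an adjusted p of 0.05 upwards, beside 26.1% of all genes upwards, 26.6% downwards and 52.7% in either direction. Since the 10 were chosen with earlier results known, these counts only describe them. Without the line term the controls of both lines share a baseline apart from the day. In that fit 8 of 10 passed upwards, beside 13.4% of all genes upwards and 11.8% downwards. By DESeq2 9 of 10 passed upwards, beside 24.0% of all genes in either direction. Of the 2891 genes in that share 1207 were higher. The spread has only 1 residual degree of freedom, and the p-values carry no information on the spread between mice. The standard error of the OGT-KO effect was larger by DESeq2 than by edgeR for all 10 members. For Clec4f it was 0.27 against 0.11, and for Marco 0.42 against 0.15.

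Lpl rose 13.5-fold (log2 3.76 ± 0.11 SE, edgeR adjusted p = 8.43e-05) and Lgals3 8.05-fold (3.01 ± 0.13, adjusted p = 0.000134). Without the line term the call for Lgals3 was lost at a larger fold (log2 4.07, adjusted p = 0.0587, the highest of 9 alternatives that went down to 3.18e-15), while that for Lpl was kept (adjusted p = 0.00843). Cd163 rose 5.73-fold (2.52 ± 0.22, edgeR adjusted p = 0.000731) and Marco 5.45-fold (2.45 ± 0.15, adjusted p = 0.00026), the steepest of the resident group. Of the general markers, Cd68 rose 4.97-fold (2.31 ± 0.13, edgeR adjusted p = 0.000215), Csf1r 4.44-fold (2.15 ± 0.13, adjusted p = 0.000286) and Adgre1 3.19-fold (1.67 ± 0.14, adjusted p = 0.000652). Vsig4 rose 3.21-fold (1.68 ± 0.17, edgeR adjusted p = 0.0011) and Cd5l 2.44-fold (1.29 ± 0.17, adjusted p = 0.00242). Clec4f had the smallest change of the 10, 1.39-fold (0.48 ± 0.11, edgeR adjusted p = 0.0141). Its call was lost without the line term (log2 0.86, adjusted p = 0.129) and by DESeq2 (log2 0.48, adjusted p = 0.21), neither with a smaller fold, and its adjusted p over 9 alternatives ranged from 0.00196 to 0.21.

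As ratios of the OGT pair itself, with a prior count of 2, the median log2 was 1.68 over the 5 resident markers, 2.15 over the 3 general markers and 3.38 over the 2 recruited markers, beside 0.00 over all genes. All but Clec4f, 9 of 10, were at least 2-fold higher in OGT-KO, beside 16.4% of all genes. By library totals each log2 ratio was larger by the shift of 0.37 given above, which brings Clec4f to 1.80-fold.

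**Figure D2:**
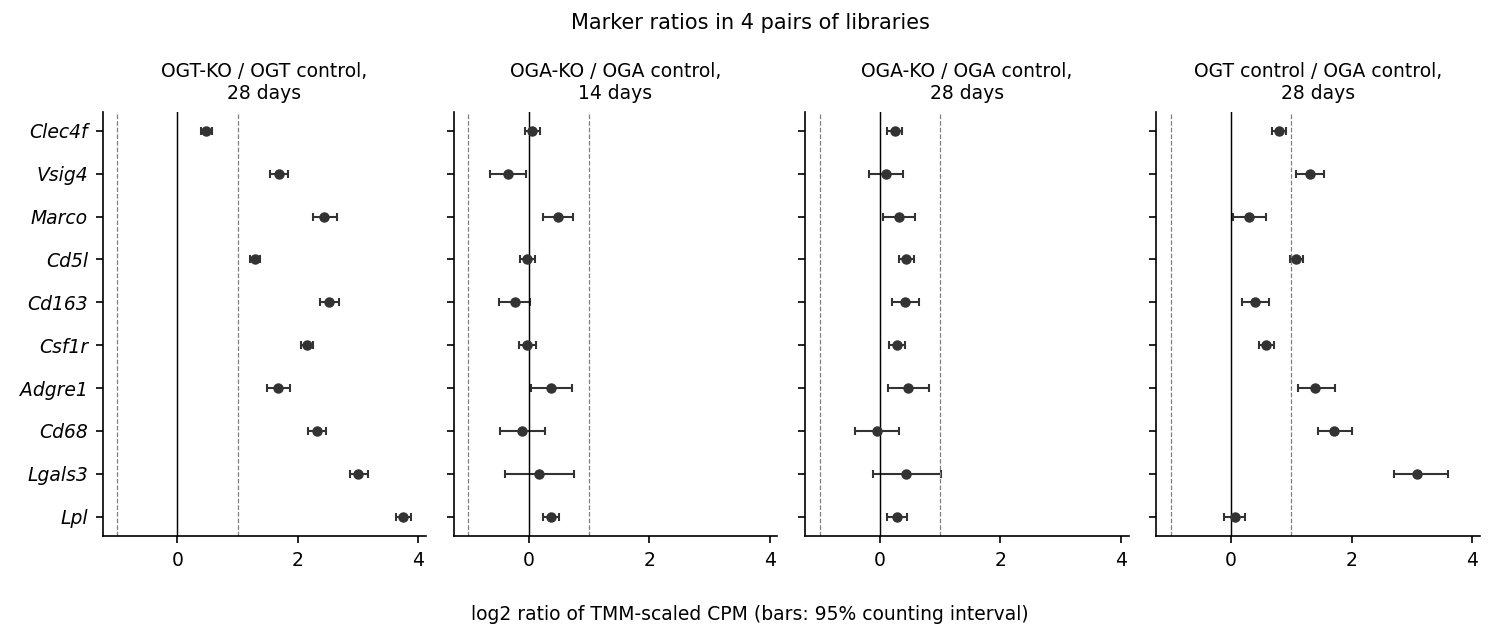
Log2 ratio of each macrophage marker in the compared pairs of libraries, with TMM factors and a prior count of 2; bars are exact 95% intervals of the counts and cover counting error only, and dashed lines mark 2-fold. Every marker lies above 0 in the OGT pair, from 0.48 for Clec4f to 3.75 for Lpl, while the largest ratio between an OGA-KO library and its control is 0.48.

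The resident markers were also set against the general markers within each library, as counts per count of Csf1r, Adgre1 and Cd68 together, a ratio that no library scaling can move. The general markers rose by a median log2 of 2.15 in OGT-KO over its control. A gene that rose less, such as Clec4f at 1.39-fold, thus has a lower ratio in OGT-KO without having fallen. Clec4f was at 1.14 and 1.11 in OGA-KO and control at 14 days, 0.905 and 0.918 at 28 days, and 0.275 and 0.858 in OGT-KO and its control. Relative to the general markers Clec4f was thus 3.12-fold lower in OGT-KO than in the OGT control (log2 -1.64, 95% interval -1.76 to -1.53), where the 5 other libraries spanned 0.858 to 1.14, and with each of the 3 general markers alone the log2 change was between -1.83 and -1.19. Cd5l was at 1.05 and 1.09, 1.04 and 0.925, and 0.593 and 1.06 in the same order, or 1.78-fold lower in OGT-KO (-0.84, -0.94 to -0.73; -1.03 to -0.39 with a single general marker). Vsig4 was at 0.164 and 0.212, 0.178 and 0.199, and 0.197 and 0.267, or 1.35-fold lower (-0.44, -0.60 to -0.28). Its OGT-KO value lay within the range of the OGA libraries, and against Adgre1 alone the change was 0.01 (-0.23 to 0.24), so this difference depends on the reference.

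The other resident markers, Marco and Cd163, were higher relative to the summed general markers in OGT-KO than in its control. Marco was at 0.326 and 0.237, 0.202 and 0.195, and 0.162 and 0.129 counts per general count, which makes OGT-KO 1.25-fold higher than its control (log2 0.33, 95% interval 0.11 to 0.54). Cd163 was at 0.224 and 0.268, 0.316 and 0.283, and 0.265 and 0.202, or 1.32-fold higher (0.40, 0.22 to 0.57). Against Cd68 alone both intervals held 0 (Marco 0.13, -0.12 to 0.38, and Cd163 0.20, -0.02 to 0.42), and against Adgre1 alone the changes were 0.77 and 0.84. The Cd163 ratio of OGT-KO lay within the range of the OGA libraries and the Marco ratio below it, and for both genes the OGT control had the lowest ratio of the 6 libraries. Against the summed counts of the other 4 resident markers Clec4f was 2.29-fold lower in OGT-KO (log2 -1.20).

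Lgals3 and Lpl were higher relative to the general markers in OGT-KO than in its control. Lgals3 was at 0.055 and 0.050, 0.050 and 0.045, and 0.389 and 0.210 counts per general count, 1.85-fold higher in OGT-KO than in its control (log2 0.89, 95% interval 0.72 to 1.06). Lpl was at 0.955 and 0.752, 0.541 and 0.534, and 0.931 and 0.30, 3.10-fold higher (1.63, 1.49 to 1.78). The Lpl ratio of OGT-KO was no higher than that of OGA-KO at 14 days, whereas the Lgals3 ratio of both OGT libraries lay above all OGA libraries. The intervals cover counting error only, and each value is 1 pool of 3 mice. In the same pair the median log2 ratio was 3.00 over cholangiocyte and 2.69 over stellate cell genes, beside 2.15 over the general markers. Which cells of the whole liver carried Lgals3 and Lpl was not tested. Over the 5 resident markers the median change of the ratio in the OGT pair was -0.44, and over the 2 recruited markers it was 1.26. The sum is mostly Csf1r, with 5968 of its counts in OGT-KO beside 1135 of Adgre1 and 2376 of Cd68. With Adgre1 alone the resident median was 0.01 and with Cd68 alone it was -0.63, and without Clec4f or without Cd5l it was -0.06 against the sum, so the median gives no stable difference between resident and general markers.

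**Figure D3:**
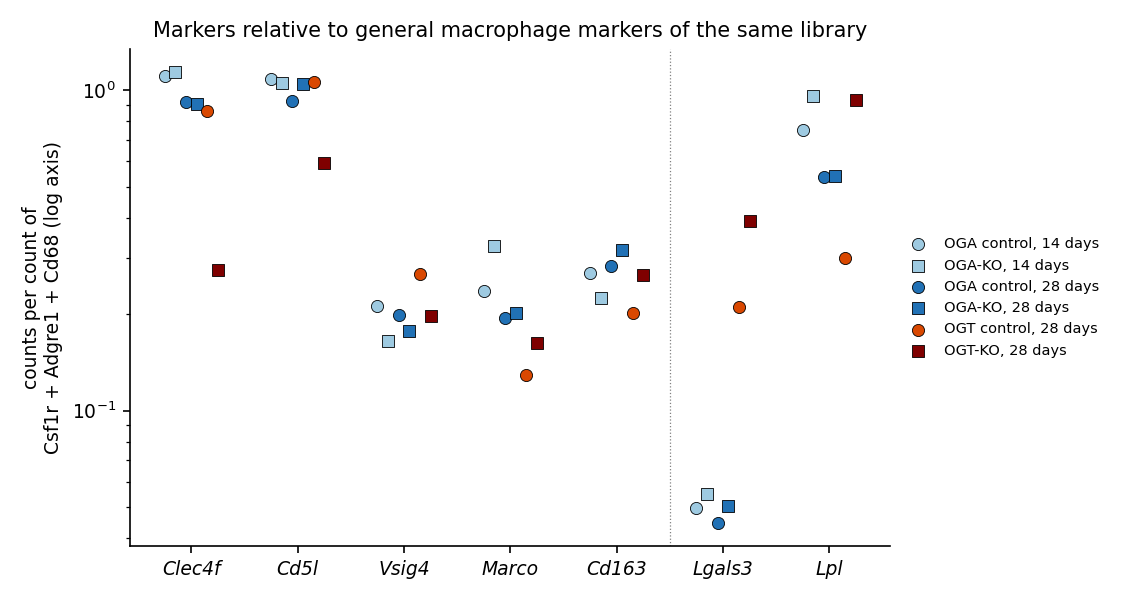
Counts of each resident and recruited marker per count of Csf1r, Adgre1 and Cd68 together, in each library, 1 point per library on a logarithmic axis. Clec4f and Cd5l have their lowest point in OGT-KO, at 0.275 and 0.593, and Lgals3 has its highest there, at 0.389.

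A further 3 Kupffer genes, picked from the resident list after their values were seen, were compared in the same way, and the whole list follows them. Timd4, the phosphatidylserine receptor TIM4 and a marker of long-lived Kupffer cells, had 135 counts in OGT-KO and 128 in its control, with 87 to 109 in the OGA libraries. It did not pass the edgeR test (log2 -0.20 by TMM, adjusted p = 0.514; the shift of 0.37 by library totals turns the sign), and relative to the general markers it was 4.99-fold lower in OGT-KO (log2 -2.32, 95% interval -2.68 to -1.96). Folr2, a folate receptor of tissue macrophages, did not pass either (278 against 180 counts, log2 0.35, edgeR adjusted p = 0.308) and was 3.41-fold lower relative to the general markers (-1.77, -2.05 to -1.49). Clec1b, the CLEC-2 receptor, rose by log2 1.28 (447 against 152 counts, edgeR adjusted p = 0.00349) and was 1.79-fold lower relative to them (-0.84, -1.12 to -0.56). Of all 14 genes of that list with a row, 8 were lower relative to the general markers in OGT-KO with an interval below 0, 3 were higher with an interval above 0 (Hmox1 0.46, C1qb 0.34 and C1qc 0.16), and the intervals of 3 held 0, with a median of -0.95. Of the 8, Cdh5, Slc40a1 and C6 are also expressed by endothelium, by several liver cell types and by hepatocytes. The general markers themselves rose by a median log2 of 2.15 in this pair, while by TMM the median of all genes stayed level. A gene that did not change in OGT-KO therefore also lies below 0 on this ratio. Only 16.4% of all genes were at least 2-fold higher in this pair, so most genes lie below 0 on this ratio. The share of all genes with an interval below 0 was not computed, and no change particular to this list is read from the 8 of 14.

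In the OGA pairs no macrophage marker passed the test. By edgeR 0 of 10 passed in either direction, beside 0.0333% of all genes, with log2 effects from -0.11 (Vsig4) to 0.42 (Adgre1) and adjusted p from 0.265 to 0.803. At an unadjusted p under 0.05 edgeR gave 3 of 10, beside 13.0% of all genes, namely Lpl (log2 0.33 ± 0.07), Marco (0.40 ± 0.11) and Adgre1 (0.42 ± 0.12), and DESeq2 passed 0 of 9 after adjustment, beside 0.505% of all genes, with no adjusted p for Adgre1. At 14 days 5 of 10 were higher in OGA-KO, beside 50.4% of all genes, and at 28 days 9 of 10, beside 50.8%, with none of 10 at 2-fold in either pair, beside 0.839% and 2.57% of all genes. The largest ratio at 14 days was that of Marco, 1.40-fold higher (log2 0.48, 95% interval 0.24 to 0.73), and Vsig4 was 1.26-fold lower (-0.34, -0.64 to -0.05). At 28 days Adgre1 was 1.38-fold higher (0.47), Cd5l 1.36-fold (0.44) and Cd163 1.34-fold (0.42), while Cd68 was 1.04-fold lower (-0.05). Median log2 ratios at 14 and 28 days were -0.02 and 0.32 for the resident markers, -0.02 and 0.28 for the general markers, and 0.27 and 0.36 for the recruited markers.

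Between the OGA controls of 28 and 14 days 3 of 10 members were higher at the later time, beside 49.5% of all genes, and none differed 2-fold, beside 0.927%. The largest difference was that of Lpl, 1.35-fold lower at 28 days (log2 -0.43, 95% interval -0.59 to -0.28). The median log2 ratio was -0.17 over the resident and 0.07 over the general markers.

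The OGT-KO effect exceeded the OGA-KO effect for 9 of 10 members by the edgeR test of the difference between both effects, beside 21.4% of all genes. The difference was 3.43 ± 0.13 on the log2 scale for Lpl (edgeR adjusted p = 0.000206), 2.70 ± 0.20 for Lgals3 (adjusted p = 0.000752), 2.41 ± 0.28 for Cd163 (adjusted p = 0.00244) and 2.39 ± 0.17 for Cd68 (adjusted p = 0.000696). For Clec4f the difference was 0.33 ± 0.13 and did not pass (edgeR adjusted p = 0.0972). Without the line term 6 of 10 passed, beside 11.6% of all genes, with Cd5l (log2 1.88, adjusted p = 0.0551), Adgre1 (2.39, adjusted p = 0.0656) and Lgals3 (5.08, adjusted p = 0.0723) no longer among them, each at a larger difference, and by DESeq2 8 of 10, beside 6.05%, with Adgre1 lost (adjusted p = 0.152). Each knockout exists in 1 line only, so the enzyme and the line cannot be told apart in this test.

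By TMM the controls of the 2 lines differed at 28 days beyond counting error in every marker but Lpl. The OGT control enters both this comparison and the OGT pair, so the values are given side by side and no agreement is read from them. All 10 members were higher in the OGT control than in the OGA control, beside 50.5% of all genes, and 5 were at least 2-fold higher, beside 4.72%. Lgals3 was 8.46-fold higher (log2 3.08, 95% interval 2.70 to 3.59) against 8.02-fold in OGT-KO over the OGT control. Cd68 was 3.26-fold higher (1.70) against 4.95-fold, Adgre1 2.64-fold (1.40) against 3.18-fold, Vsig4 2.47-fold (1.31) against 3.20-fold and Cd5l 2.12-fold (1.08) against 2.44-fold. Clec4f was 1.73-fold higher (0.79) against 1.39-fold, so the difference between the 2 controls was larger than that between OGT-KO and its control. Csf1r was 1.5-fold higher, Cd163 1.32-fold and Marco 1.23-fold. Lpl was 1.04-fold higher (log2 0.06, 95% interval -0.11 to 0.23) against 13.5-fold in the OGT pair. By library totals the median of all genes lay 0.23 higher on the log2 scale in the OGT control, with Clec4f at 2.03-fold and Lpl at 1.22-fold. The counting intervals were computed with TMM factors only. Line, allele and library cannot be told apart here, since each control is 1 pool.

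Relative to the general markers the 2 controls differed mostly in Lgals3, which was 4.72-fold higher in the OGT control (log2 2.24, 95% interval 1.80 to 2.68), and in Lpl, which was 1.78-fold lower (-0.83, -1.03 to -0.63). The Clec4f ratio to the sum differed by less than its counting error (-0.10, -0.25 to 0.06), but with Csf1r alone it was higher in the OGT control (0.21, 0.04 to 0.38) and with Adgre1 (-0.62) or Cd68 (-0.92) alone lower. Marco (-0.59) and Cd163 (-0.49) were lower relative to the sum in the OGT control, and with Adgre1 or Cd68 alone, while with Csf1r alone both intervals held 0. Vsig4 was higher relative to the sum (0.42) and lower with Cd68 alone (-0.41), while with Adgre1 alone the interval held 0 (-0.10, -0.48 to 0.28).

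Other genes of the macrophage programme were read from fixed lists, whose members had been chosen with earlier results known. Each count of a list stands beside 26.1% of all genes that rose and 26.6% that fell, or 13.4% and 11.8% without the line term. Of 14 other resident Kupffer genes with a row, 9 rose in OGT-KO and 1 fell by edgeR, with a median log2 ratio of 1.17. Among them were Hmox1, the haem-degrading enzyme (log2 2.58, edgeR adjusted p = 0.000192), and the complement genes C1qb (2.46) and C1qc (2.29). C6, a complement gene that hepatocytes also express, fell by 3.28. Of 11 transcription factors of Kupffer identity 7 rose and 4 fell, with a median of 1.13. Id1 (3.11), Spi1, which encodes PU.1 (2.22), and Tfec (2.09) rose. Nr1h3, the receptor LXR alpha (-0.91), Rxra (-1.10) and Cebpb (-0.57) were among those that fell, and these 3 are also expressed by hepatocytes. Without the line term 8 rose and 1 fell in the first list, and 5 rose and 1 fell in the second.

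Of 18 general myeloid genes 16 rose in OGT-KO and none fell by edgeR, with a median log2 ratio of 2.28. Fcgr1, the high-affinity IgG receptor (3.61), Cd14, the co-receptor for endotoxin (3.30), Ctss, a lysosomal protease (2.89) and Lyz2, lysozyme (2.86) had the largest changes. Mpeg1 (log2 0.74, edgeR adjusted p = 0.107) and Cd74, the invariant chain of MHC class II (-0.38, adjusted p = 0.189), did not pass. Of 17 further genes of recruited or lipid-associated macrophages only 8 had a row, and those 8 rose, with a median of 2.48. Every row of the table held at least 28 counts over the 4 OGA libraries, so a gene counted mainly in the OGT libraries had less chance of a row. Capg (3.80), Spp1, which encodes osteopontin (2.87), and Ccr2, the chemokine receptor of inflammatory monocytes (2.73), were among the 8. The other 9 of that list, Trem2, Gpnmb, Cx3cr1 and Ly6c2 among them, are not analysed here. Without the line term 6 of the 8 rose.

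Of 13 growth factors, chemokines and their receptors 10 rose in OGT-KO (9 without the line term) and none fell by edgeR, beside 26.1% and 26.6% of all genes, with a median log2 ratio of 1.80. Csf1, the main macrophage growth factor, rose by 1.63 (edgeR adjusted p = 0.00181), and Il34, the other ligand of Csf1r, did not pass (0.98, adjusted p = 0.0537). Ccl6 (3.14), Cx3cl1 (3.07) and Ccl2, which draws monocytes through Ccr2 (2.75), rose most. Of 14 niche genes of the Notch and BMP pathways that maintain Kupffer identity 7 rose (4 without the line term) and none fell, with a median of 0.40, among them Smad6 (1.75), Gdf2, which encodes BMP9 (1.34), and Bmp10 (1.29). Of 12 scavenger and efferocytosis receptors 7 rose and 2 fell, with a median of 0.87. Msr1 (2.63), Axl (2.20) and Mertk (1.87) led that list.

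The partners of the recruited markers did not move as a block. Of 14 genes of the lipoprotein lipase system and lipid handling 5 rose and 5 fell in OGT-KO by edgeR, beside 26.1% and 26.6% of all genes, with a median log2 ratio of 0.12. Abcg1, which exports cholesterol (2.84), and Apoc2, the cofactor of lipoprotein lipase (1.59), rose, and Lipc, the hepatic lipase (-2.52), fell. Of the 5 genes in the galectin list Lgals1 rose (2.46), as did Lgals3bp (0.59), which encodes a ligand of galectin-3 and not a galectin. Lgals9 fell (-0.94), and Lgals4 (0.52) and Lgals8 (-0.35) did not pass. Of 11 genes of haemoglobin and iron handling, which Cd163 feeds, 3 rose and 3 fell, with a median of 0.12, shares close to those of all genes (26.1% and 26.6%). Slc11a1 (1.85) and Slc48a1 (1.29) rose and Blvrb (-1.65) fell. In the OGA-KO effect 0 genes of these lists passed in either direction by edgeR, beside the 0.0333% of all genes given above.

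**Figure D4:**
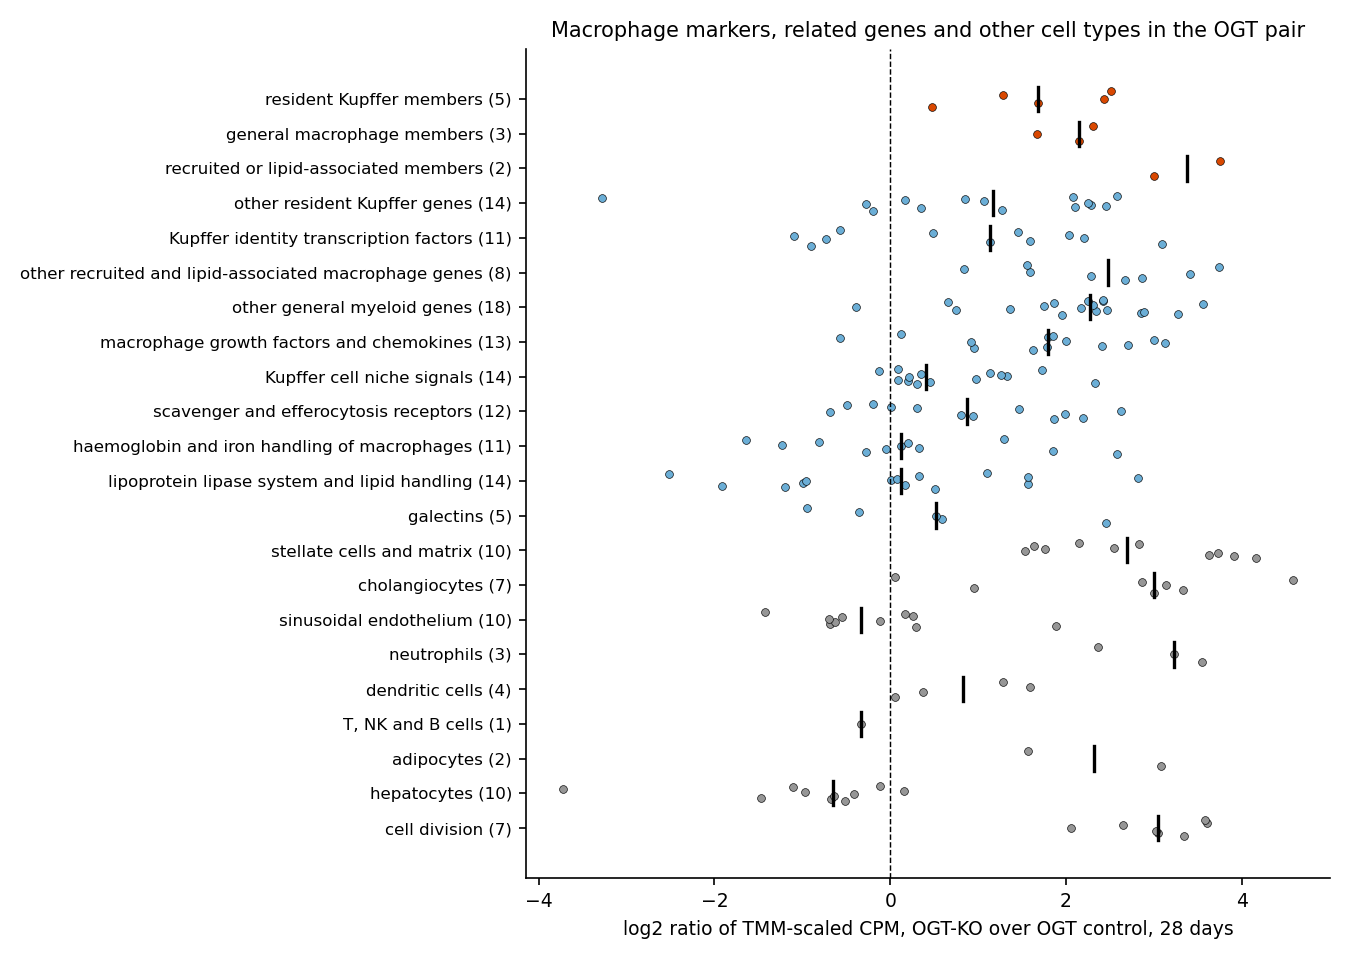
Log2 ratio of OGT-KO over the OGT control at 28 days for the genes of each fixed list with at least 1 CPM in either library, 1 point per gene, with the list median as a bar. The median is 1.68 for the resident, 2.15 for the general and 3.38 for the recruited markers, beside 3.00 for cholangiocyte, 2.69 for stellate and -0.66 for hepatocyte genes.

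Markers of other cell types moved with the macrophage markers in OGT-KO. Of 10 stellate cell and matrix genes 10 rose, with a median log2 ratio of 2.69 and a summed level of 2367 CPM in OGT-KO, 283.1 CPM in its control and 171.8 to 248.5 CPM in the OGA libraries. Of 7 cholangiocyte genes 6 rose, with a median of 3.00 and summed levels of 495.3, 100.9 and 68.7 to 84.4 CPM. Spp1 is in that list and in the list of recruited macrophage genes, and Krt19 (3.05) and Epcam (3.17), which macrophages lack, rose as well. All 7 cell division genes rose (median 3.05), and 8 of 10 hepatocyte genes fell (median -0.66). These counts by edgeR stand beside 26.1% of all genes that rose and 26.6% that fell. Without the line term 9 stellate, 5 cholangiocyte and 7 cell division genes rose and 3 hepatocyte genes fell, beside 13.4% and 11.8%. The shift of 0.37 by library totals makes the hepatocyte fall smaller. The part of these cell types, and of the higher composition factor of the OGT-KO library, in the macrophage values was not tested.

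Adipocytes express Lpl, and their list was read beside it. Of 7 adipocyte genes 3 had a row, Cidec (log2 3.09, edgeR adjusted p = 0.000166) and Fabp4 (1.57, adjusted p = 0.00191) rose, and Cfd had 0 counts in both OGT libraries, which allows up to 3 counts or 0.107 and 0.13 CPM. Cidec is also expressed by fat-laden hepatocytes and Fabp4 by endothelium and macrophages. The summed level of the list was 97.7 CPM in OGT-KO, 16.4 CPM in its control and 8.71 to 14.5 CPM in the OGA libraries, and its part in the Lpl value was not tested. Of 3 neutrophil genes with a row 3 rose by edgeR, 1 of them without the line term, at a summed level of 19.0 CPM in OGT-KO, 2.77 CPM in its control and 3.32 to 5.63 CPM in the OGA libraries. Of 4 dendritic cell genes 2 rose, neither without the line term, and of 2 lymphocyte genes none passed (edgeR adjusted p = 0.362 and 0.427). In the sinusoidal endothelium 1 of 10 genes rose (Lyve1, 1.90) and 5 fell, with a median of -0.33 by TMM, which the shift of 0.37 by library totals brings above 0. Each of these counts stands beside 26.1% of all genes that rose and 26.6% that fell, or 13.4% and 11.8% without the line term.

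The genes with the most similar profile over the 6 libraries were found by the root mean square difference of centred log2 CPM. Closest to the mean of the 5 resident markers were Bcl2l11 (0.06), Sdc3 (0.08), Adgre5 (0.10), Pip4k2a (0.10) and Cxcl16 (0.10). Closest to the mean of the 3 general markers were Axl (0.06), Slc11a1 (0.07), Nedd9 (0.09), Ikzf1 (0.09) and Abcc1 (0.10). Closest to the mean of Lgals3 and Lpl were Pygb (0.15), B4galt6 (0.18), Thbs1 (0.19), Ahnak2 (0.19) and Cidec (0.19). Lgals3 and Lpl had unlike profiles, with log2 3.08 and 0.06 for the OGT control over the OGA control at 28 days. Their mean thus describes neither gene. In each of the 3 profiles OGT-KO was the highest library. Axl, Slc11a1 and Cxcl16 are also in the fixed macrophage lists, and Cidec is in the adipocyte list.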

How the data were processed

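The deposited counts are whole reads per Ensembl gene, in 1 column for each library, and the deposited normalised table held CPM, which the authors computed from the counts; CPM was used here only to check the columns. Per the submitters' processing notes the tools were STAR, Subread and edgeR and the build mm39, with versions and settings not given in the sources used here. The labels put 1 library in each of 6 groups. Symbols came from an annotation of GRCm38 and matched 12019 of 12027 identifiers, and promoter windows came from RefSeq (GRCm38.p6). The row filter of the table is not given in the sources used here. The deposited CPM summed to 1000000 in the OGA columns, but to 992309 in OGT-KO and 998961 in the OGT control. The OGT columns thus lack some rows that entered their CPM, and the shares of all genes leave those rows out.

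The macrophage markers and the gene lists were chosen with earlier results of these data known. Counts were fitted with edgeR 4.0.16 in R 4.3.3 (filterByExpr, 12026 genes tested, TMM, quasi-likelihood test, Benjamini-Hochberg adjusted p under 0.05) with terms for the line, the day, the OGA-KO and the OGT-KO beside an intercept, which leaves 1 residual degree of freedom, and the standard error was the log2 effect divided by the square root of F. DESeq2 1.42.0, other scalings, no filter, no line term and leaving out each OGA library were the alternatives. The fit was run on simulated counts drawn with its own dispersion, where only the sign and size of planted effects had to be recovered. That run cannot show whether the OGT libraries vary like the OGA libraries. Pair ratios used TMM CPM with a prior count of 2 and exact 95% Clopper-Pearson intervals of the counts. Intervals of ratios between markers are normal intervals of the log odds ratio of the counts. Without molecular identifiers, all intervals and the floor of 3 counts (0.107 to 0.13 CPM) cover counting error only. The size rule asked for 2-fold, with 1 CPM or more on the higher side. Genes named were the 10 markers, up to 4 genes a list with the largest ratio in the OGT pair, and the 5 nearest genes of each profile. Timd4, Folr2, Clec1b, Nr1h3, Rxra, Cebpb, Mpeg1, Cd74, Csf1, Il34 and Lgals8 fall outside that rule and were chosen after their values were seen. The count over the whole resident list relative to the general markers was added after its values were seen.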

Additional observations from a re-analysis of the deposited data

Results flagged for a closer look

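Because the difference between the OGT-KO and the OGA-KO effect passed the edgeR test, 9 of the 10 macrophage markers call for a closer look. On the log2 scale the difference was 3.43 for Lpl, 2.70 for Lgals3, 2.41 for Cd163, 2.39 for Cd68, 2.04 for Marco, 2.02 for Csf1r, 1.80 for Vsig4, 1.25 for Adgre1 and 1.07 for Cd5l. The OGT-KO effect rests on 1 library and its control, and the OGT libraries are also of another line. The part of the line was not tested beyond the line term of the fit.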

How the results depend on the processing

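The OGT-KO call was kept under all 9 alternatives for 8 of the 10 markers, and was lost for Clec4f under 2 and for Lgals3 under 1, as given above. Signs of the OGA-KO effect, which passed for no marker, reversed without the line term for Clec4f (-0.090), Cd5l (-0.12), Csf1r (-0.035), Adgre1 (-0.066) and Lgals3 (-1.01). They also reversed without the OGA-KO library of 14 days for Vsig4 (0.088) and Cd68 (0.0015), and without that of 28 days for Cd163 (-0.31) and Csf1r (-0.060). The OGT-KO effect passed for 6332 genes (49.5% of them higher), and for 2891 by DESeq2, 3035 without the line term and 7196 by library totals (74.1% higher). The OGA-KO effect passed for 4 genes, and for 2 with RLE size factors, 36 by DESeq2 and 0 without the line term (259 at an unadjusted p under 0.05). Leaving out an OGA library gave 0 to 318 genes: 318 without OGA-KO of 14 days, 7 without OGA-KO of 28 days and 0 without either control. The difference of effects passed for 5301 genes, 2057 by DESeq2 and 2766 without the line term. The size rule took 3320 genes in the OGT pair (1937 higher, or 2832 of 3664 by library totals) and 5553 at 1.5-fold. It took 99 in the OGA pair of 14 days (48 with a prior count of 10, 27 from 5 CPM, 546 at 1.5-fold) and 304 in that of 28 days (160 from 5 CPM, 1014 at 1.5-fold). Between the OGA controls it took 109 (45 from 5 CPM, 474 at 1.5-fold), and between the 28-day controls 1230 (3194 at 1.5-fold). The median of resident over general markers in the OGT pair, -0.44, was 0.0093 with Adgre1 and -0.63 with Cd68 as the reference. It was -0.056 without Clec4f or Cd5l, -0.25 without Vsig4 and -0.64 without Marco or Cd163, and the recruited median of 1.26 was 0.89 without Lpl. The resident median was -0.39 with Adgre1 (-0.04 with the sum) in the OGA pair of 14 days, and 0.37 with Cd68 (0.05 with the sum) in that of 28 days. Between the 28-day controls it was -0.10 with the sum, 0.21 with Csf1r, -0.62 with Adgre1, -0.92 with Cd68 and -0.29 without Vsig4 or Cd5l. The recruited median there was 0.70, and 2.24 without Lpl. The cause of these shifts was not tested. Fits without an OGT library were not run, since its effect has no other library. No paired analysis was possible because the labels carry no replicate numbers and each group has 1 library.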

Other observations

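The OGT control was the lowest library for some genes of the macrophage lists. Fabp5, a fatty acid binding protein of lipid-associated macrophages, stood at 2.51 CPM in the OGT control, 27.5 CPM in OGT-KO and 16.9 to 24.6 CPM in the OGA libraries. It rose in OGT-KO by log2 3.45 in the edgeR fit (adjusted p = 0.000609), and the call was lost without the line term (adjusted p = 0.555). Dll1, a Notch ligand of the Kupffer cell niche, stood at 0.736 CPM in the OGT control, 4.01 CPM in OGT-KO and 4.24 to 7.56 CPM in the OGA libraries, and it rose by log2 2.44 in the fit (edgeR adjusted p = 0.0108) but not without the line term (adjusted p = 0.809).

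Itgax, which encodes CD11c, had 32 against 12 and 22 against 10 counts in the OGA pairs and 198 against 53 in the OGT pair, and its OGA-KO effect did not pass (edgeR adjusted p = 0.304). Itgax was chosen after its values were seen.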
